A study of Homo sapiens with 9 samples.

Results

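The comparison described here asks what the first 12 h of doxycycline (DOX) did to the transcriptome of U937 cells that carried no fusion protein. U937 is a human monocytic leukemia line. A stable U937 line with the empty inducible vector, given the genotype WT in the labels, was profiled by RNA-seq before DOX (0 h) and after 12 h in 5 μg/ml DOX, with 1 library at each time, so these are 2 of the 9 samples of the series. The other 7 are the same line at 48 h and stable lines selected as single clones, with inducible HA-tagged AML1-ETO or ETO2-GLIS2, at 0, 12 and 48 h of the same drug. Of the 60623 genes listed, the 11694 with a mean of at least 1 FPKM (reads per kilobase of exon, corrected for library depth) over the 0 h and 12 h libraries were compared, as log2 of the 12 h value over the 0 h value after adding 0.1 FPKM to each. A gene is said to have risen or fallen only if it changed more than 2-fold. A gene under 1 FPKM at 1 of the times reached that mean only through its value at the other, so its direction was fixed. This holds for genes such as CSF1R, IL1RN, DDIT3, CAMP, S100A9, FOSB, HIST1H2BJ and HIST1H2BL. The bracketed 95% intervals are exact intervals of the read ratio before the 0.1 is added and cover counting error only. Each side is 1 library, so no p-value is given and the spread between replicates is unknown. No library was taken at 12 h without DOX, so the drug cannot be told apart from the 12 h in culture and its handling.

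The library totals implied by the FPKM values were 16267442 reads at 0 h and 15136402 reads at 12 h, within the 15136402 to 18443645 of the series. RUNX1T1, the ETO part of AML1-ETO, had 0 reads in both libraries, which allows up to 3 reads in each, whereas it went from 0.512 to 22.2 FPKM in the AML1-ETO line. RUNX1 (19.3 and 21.9 FPKM), CBFA2T3 (4.75 and 6.38 FPKM) and GLIS2 (4.76 and 3.64 FPKM) changed less than 2-fold in the empty vector line. Of 19 monocytic markers, 15 passed the filter, with LYZ, PRTN3, ELANE, CD4 and AZU1 the highest at 0 h, but CD68 was listed at 0 in both libraries, and CD14 (0.0373 and 0.0802 FPKM), MPO (0.157 and 0.262 FPKM) and HLA-DRA (0.148 and 0 FPKM) were near 0. The summed level of these markers was 2025 FPKM at 0 h and 2176 FPKM at 12 h. The 18 markers of T, B, erythroid, fibroblast and epithelial cells summed to 8.22 and 8.89 FPKM, with 13 and 11 of them listed at 0 and PAX5 at 2.78 and 2.45 FPKM.

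DOX is a tetracycline. It switches on transgenes through the tetracycline-controlled activator, and like other tetracyclines it also binds the bacterial type of ribosome that mitochondria use to make the proteins encoded in their own genome. Several responses of mammalian cells are read out below. The sterol response is driven by SREBP factors, which are held in the endoplasmic reticulum (ER) by INSIG proteins while sterols are plentiful and otherwise move to the nucleus to switch on cholesterol and fatty acid genes together with the CCAAT-binding factor NF-Y. The integrated stress response is driven by ATF4, which raises amino acid synthesis, transport and tRNA charging. Immediate early genes such as FOS and EGR1 are switched on within minutes of serum or growth factor stimulation through CArG boxes bound by SRF.

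The list with the largest share of genes past 2-fold held genes of cholesterol and fatty acid synthesis. Promoter stretches of 5 of them are shown first because most promoters found for this list hold CCAAT, the NF-Y element. They are from the RefSeq promoters of GRCh38.p14, 5′ to 3′ on the strand of the gene and wholly before the annotated start, with matches in capitals. MSMO1 lies at chr4:165327469-165327654 (plus strand), MVD at chr16:88663157-88663265 (minus strand), SCD at chr10:100346989-100347066 (plus strand), INSIG1 at chr7:155297693-155297727 (plus strand) and SREBF2 at chr22:41832957-41833018 (plus strand). The capitals mark CCAAT, which reads ATTGG on the other strand, and in SREBF2 also the sterol element TCACNCCAC.
MSMO1: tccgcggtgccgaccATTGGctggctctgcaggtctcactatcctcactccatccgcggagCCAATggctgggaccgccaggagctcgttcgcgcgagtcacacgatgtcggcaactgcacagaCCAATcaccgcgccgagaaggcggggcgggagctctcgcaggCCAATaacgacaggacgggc
MVD: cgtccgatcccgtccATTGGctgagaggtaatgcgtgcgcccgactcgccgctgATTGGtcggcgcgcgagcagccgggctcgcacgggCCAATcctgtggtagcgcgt
SCD: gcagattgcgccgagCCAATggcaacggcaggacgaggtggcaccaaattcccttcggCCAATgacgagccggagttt
INSIG1: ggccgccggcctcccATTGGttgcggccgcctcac
SREBF2: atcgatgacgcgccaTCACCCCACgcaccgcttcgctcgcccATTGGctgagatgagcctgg

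MSMO1 carried 4 CCAAT matches before its start, MVD 3, SCD 2, and INSIG1 and SREBF2 1 each. Promoters of 300 bases (250 before and 50 after the start) were found for 22 of the 28 genes of this list that passed the filter. FDFT1, SQLE and FASN were among those with no entry. CCAAT on either strand was present in 19 of the 22 genes (86.4%), against 43.1% of the 8007 tested genes with a promoter and 34.6% of all 35116 promoters. It was not particular to this list, since 9 of 11 promoters (81.8%) of the serine, proline and one-carbon enzymes, of which 1 rose and 0 fell, held it as well, and 7 of 14 of the ATF4 list. The sterol element, searched as TCACNCCAC on both strands, was in 1 of the 22, SREBF2, and in 1.36% of the promoters of tested genes. These matches describe the sequence and are not measured binding sites.

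Across all genes, 615 (5.26%) were more than 2-fold higher at 12 h and 211 (1.8%) were more than 2-fold lower. Of all genes tested, 7955 (68%) were above their 0 h level, 1594 (13.6%) more than 1.5-fold higher and 427 (3.65%) more than 1.5-fold lower. The median log2 ratio of all genes was 0.14, so list medians below are also given relative to it. After rescaling by the median ratio, the counts were 430 and 234. Most of these genes were weakly expressed: the median read number on the larger side was 34 for the genes that rose and 16 for those that fell. Only 27.5% and 30.8% of those found in the annotation were protein-coding, against 82.7% of all genes tested. Of the 9598 protein-coding genes tested, 164 rose and 62 fell. The 5.26% and 1.8% set beside lists below include noncoding genes and are above the shares of protein-coding genes. A list share near 5.26% is therefore not near that of protein-coding genes. The counting interval of 452 of 605 rises and of 107 of 196 falls with recovered reads excluded no change, and in 124 and 45 it lay wholly beyond 2-fold. Among the 4584 genes with a mean of at least 10 FPKM, 39 rose (0.851%) and 45 fell (0.982%), and 20 of these 45 belong to the cholesterol and fatty acid list. At that level, the gene just past 2-fold higher was MT2A (20.7 to 41.6 FPKM) and the one just under was CEBPB (21.0 to 42.1 FPKM). The gene just past 2-fold lower was MIR3153 (17.99 to 8.86 FPKM) and the one just short was MT-CO1 (15028 to 7692 FPKM).

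Of the 28 cholesterol and fatty acid genes tested, 24 (85.7%) fell and 0 rose, against the 1.8% of all genes that fell, and the median log2 ratio was -1.79, or -1.92 relative to all genes. Together the 31 genes of the list summed to 3657 FPKM at 0 h (1.36% of all FPKM), 839 FPKM at 12 h (0.33%) and 444 FPKM at 48 h (0.169%). Rescaling left the count at 24. Another 3 list genes did not reach the filter: CYP51A1, which had 99 reads at 0 h and 12 reads at 12 h, HSD17B7 and ELOVL6. CYP51A1 shares 68.2% of its exon bases with another gene on the same strand, so its reads are uncertain. HSD17B7 was listed at 0 in every library.

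Among regulators, INSIG1 (ENSG00000186480, chromosome 7 from 155297878 to 155310235), the ER anchor that retains SREBP and is itself an SREBP target, stood at 380.4 FPKM before DOX, 41.0 after 12 h and 10.7 after 48 h, with a log2 ratio at 12 h of -3.21 (-3.28 to -3.15). It was the deepest fall of the list. The genes of the SREBP factors themselves went from 88.2 to 49.1 FPKM for SREBF2 (log2 ratio -0.84) and from 35.3 to 23.2 FPKM for SREBF1 (-0.60), so neither passed 2-fold. STARD4, a sterol carrier, fell from 18.1 to 5.58 FPKM.

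In the mevalonate section of the pathway, HMGCS1, the synthase at its entry, fell from 14.1 to 2.45 FPKM. Later enzymes fell as well, with MVK at 12.5 and 4.24 FPKM, MVD at 53.4 and 10.1 FPKM, IDI1 at 57.9 and 18.4 FPKM and FDPS at 81.2 and 21.6 FPKM. PMVK, the kinase between MVK and MVD, was the only list member above its 0 h level, at 32.3 and 38.1 FPKM (log2 ratio 0.24). Reads of HMGCS1 cannot be assigned to a strand, and 37.7% of its exon bases overlap a gene on the other strand.

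The committed sterol enzymes showed the same picture. FDFT1, which makes squalene, fell from 193 to 45.6 FPKM and SQLE, which oxidizes it, from 113 to 23.5 FPKM. LSS, which closes the sterol rings, fell from 97.0 to 26.2 FPKM. The later demethylation, isomerization and reduction steps ran from MSMO1 at -2.51 (59.3 to 10.4 FPKM) and DHCR7 at -2.47 (115 to 20.6 FPKM) to EBP at -1.25, NSDHL at -1.24 and SC5D at -1.07 on the log2 scale. EBP shares 36.4% of its exon bases with another gene on the same strand, and its value rests on 246 and 95 reads.

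In fatty acid synthesis, FASN (ENSG00000169710, chromosome 17 from 82078338 to 82098236), the fatty acid synthase, stood at 465 FPKM before DOX, 57.1 after 12 h and 29.7 after 48 h, with a log2 ratio at 12 h of -3.02 (-3.06 to -2.99). SCD (ENSG00000099194, chromosome 10 from 100347233 to 100364826), which introduces the first double bond, had 1212, 235 and 92.8 FPKM, a log2 ratio at 12 h of -2.37. Its reads could not be recovered, so it has no interval. The suppliers of acetyl-CoA fell, ACSS2 from 44.03 to 9.13 FPKM and ACLY from 141 to 60.4 FPKM, and so did the desaturases FADS2 (83.8 to 17.2 FPKM) and FADS1 (64.0 to 24.1 FPKM). ACACA, the carboxylase that feeds FASN, was at 8.98 and 6.93 FPKM, a log2 ratio of -0.37 that did not pass 2-fold.

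**Figure D1:**
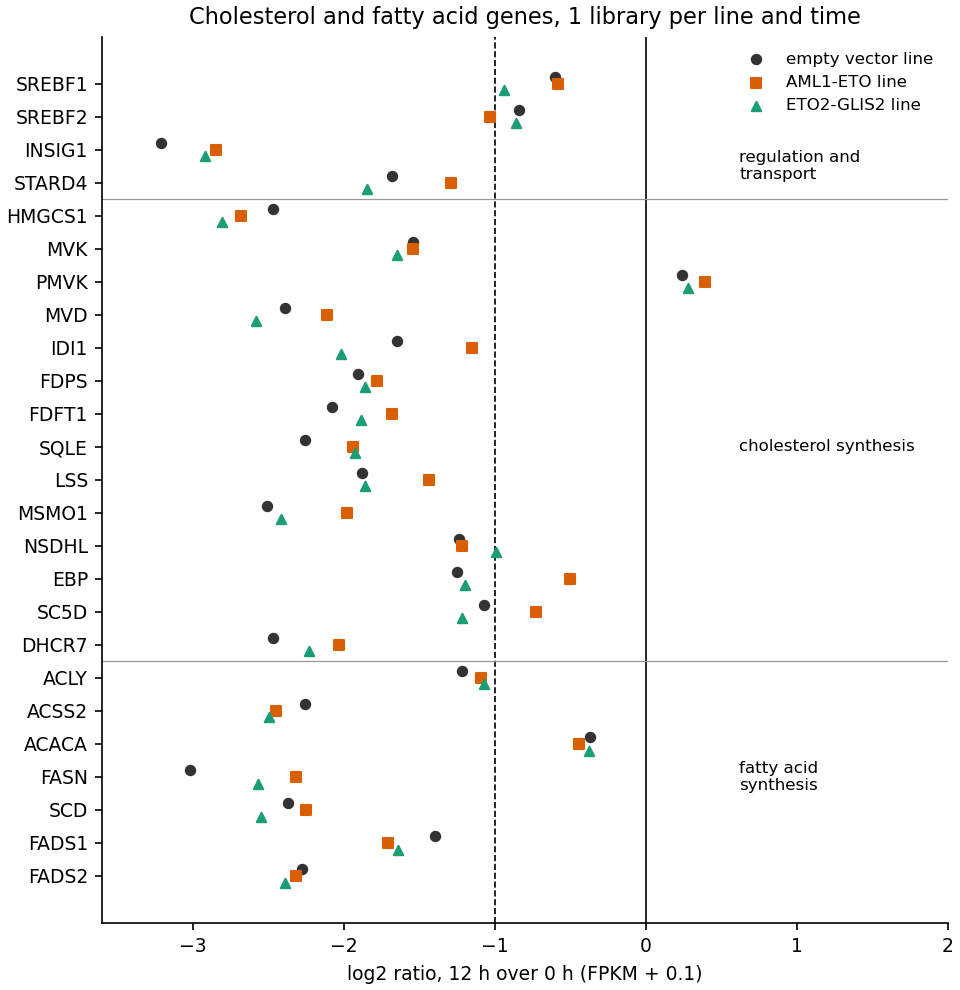
Log2 ratio of 12 h over 0 h (horizontal axis) for 25 of the 28 cholesterol and fatty acid genes tested, in pathway order from top to bottom, in the empty vector, AML1-ETO and ETO2-GLIS2 lines, with 1 library per line and time and a dashed line at 2-fold lower. In the empty vector line 21 points are left of the dashed line, SREBF1, SREBF2 and ACACA lie between it and 0, and PMVK is right of 0 in all 3 lines.

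The same list could be read in the other lines, which have their own 0 h libraries but also express a fusion protein after DOX. In the AML1-ETO line, 24 of 29 tested members fell with a median of -1.63, where 2.24% of all genes tested fell. In the ETO2-GLIS2 line, 23 of 28 fell with a median of -1.86, where 1.41% of all genes tested fell. INSIG1 went from 292 to 40.3 FPKM and from 427 to 56.3 FPKM, and FASN from 324 to 65.0 FPKM and from 254 to 42.7 FPKM. The levels of the empty vector line at 12 h were within this range for INSIG1 and FASN.

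Outside the list, ACAT2, TMEM97 and ERG28, named after their values were seen because they act in or beside sterol synthesis, fell from 79.8 to 22.3, from 50.01 to 14.8 and from 32.1 to 12.9 FPKM. GLO1, the glyoxalase that detoxifies methylglyoxal, fell from 965 to 382 FPKM and TUBA1A, an α-tubulin, from 47.6 to 11.02 FPKM. Both were also chosen after their values were seen.

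Among genes with a mean of at least 10 FPKM, the steepest falls were in 2 immediate early genes. EGR1 (ENSG00000120738, chromosome 5 from 138465479 to 138469303), a zinc finger factor, stood at 40.9 FPKM before DOX, 0.527 after 12 h and 0.683 after 48 h, or 2089 and 25 reads at 0 and 12 h, a log2 ratio of -6.03 (-6.91 to -5.71). FOS (ENSG00000170345, chromosome 14 from 75278828 to 75282230), a subunit of AP-1, had 73.1, 3.01 and 3.98 FPKM, a log2 ratio of -4.56 (-4.85 to -4.36). Both remained low in the 48 h library. The promoter of EGR1 is shown because it was the only 1 of 17 immediate early promoters in which CArG boxes were found. Of all promoters, 1.29% hold them. The search covered only 250 bases before and 50 bases after each start. A CArG box farther from the start, in FOS or another gene, would not have been found. The EGR1 stretch is at chr5:138465359-138465420 (plus strand, GRCh38.p14, before the start), with both CArG boxes in capitals.
EGR1: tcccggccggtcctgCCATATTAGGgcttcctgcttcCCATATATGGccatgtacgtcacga

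Of the 23 immediate early genes tested, 6 fell (26.1%, against 1.8% of all genes), 1 rose (4.35%, near the 5.26% of all genes), and the median was -0.35. Beside EGR1 and FOS, the AP-1 subunits FOSB (2.2 to 0.238 FPKM), JUN (28.5 to 11.6 FPKM) and JUNB (47.2 to 23.2 FPKM) fell, as did the phosphatase gene DUSP1 (3.76 to 1.71 FPKM). DUSP5, a nuclear ERK phosphatase, rose from 3.93 to 8.39 FPKM, but not past 2-fold after median rescaling, which also took the number of falls to 8. Other AP-1 members did not move past 2-fold, with JUND at 24.4 and 23.8 FPKM and FOSL2 at 19.6 and 21.9 FPKM, nor did MYC at 40.0 and 27.1 FPKM. EGR1, FOS, JUN, JUNB and DUSP1 also fell in the AML1-ETO and ETO2-GLIS2 lines, where FOS went from 135 to 9.96 FPKM and from 69.0 to 5.6 FPKM.

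Of 17 inflammatory genes tested, 2 fell (11.8%, against 1.8% of all genes) and 1 rose (5.88%, near the 5.26% of all genes), with a median of 0.22, or 0.08 relative to all genes. The cytokine TNF went from 2.49 to 1.1 FPKM on 68 and 28 reads, and the chemokine CXCL8 from 5.02 to 1.27 FPKM on 183 and 43 reads. At 48 h, TNF was at 3.02 FPKM and CXCL8 at 5.34 FPKM. IL1RN, the interleukin 1 receptor antagonist, rose from 0.887 to 2.11 FPKM. NFKBIA, the feedback inhibitor of NF-κB, was at 8.37 and 8.69 FPKM. No interferon-stimulated gene of 17 passed 2-fold, with BST2 at 78.4 and 61.0 FPKM.

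**Figure D2:**
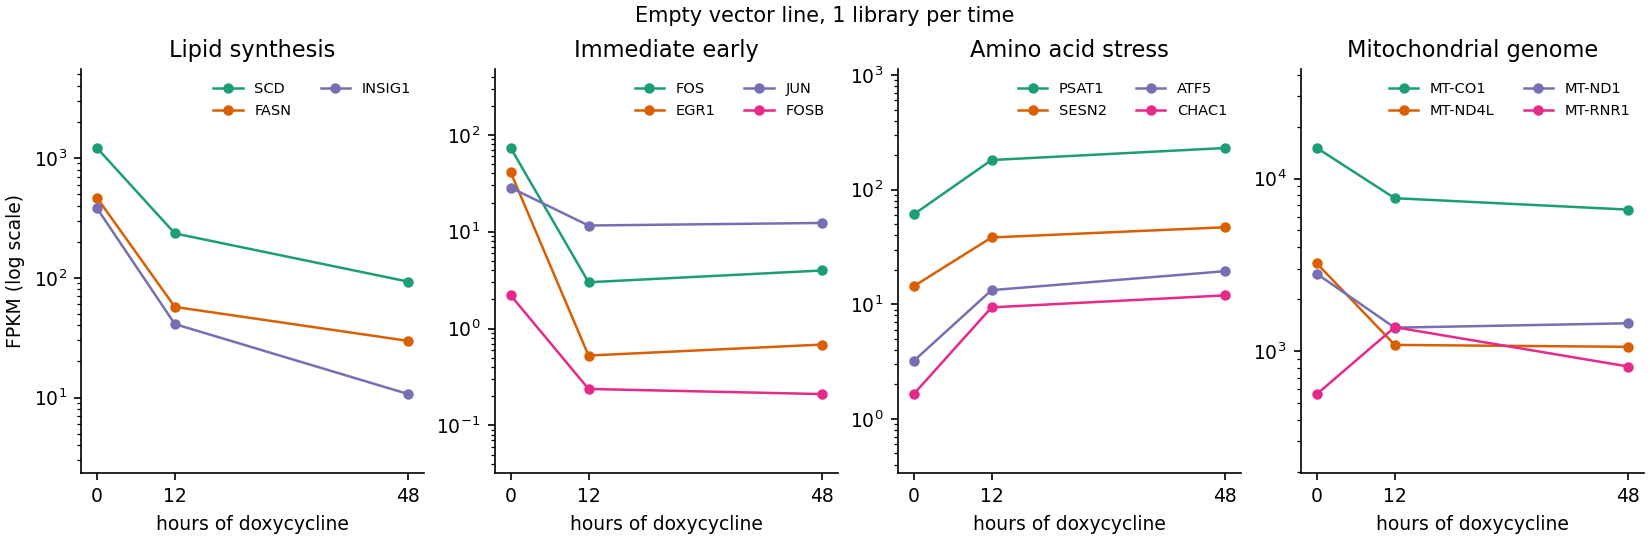
FPKM (vertical axis, log scale) at 0, 12 and 48 h of doxycycline in the empty vector line, 1 library per time, for 15 genes in 4 groups. SCD, FASN and INSIG1 are lower at 48 h than at 12 h, EGR1 and FOS are near their 12 h level at 48 h, the amino acid stress genes are above their 0 h level at both times, and MT-RNR1 is highest at 12 h.

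Genes of the ATF4 response moved the other way. Of the 16 tested, 6 rose (37.5%, against 5.26% of all genes), 0 fell, 15 were above their 0 h level, and the median was 0.76, or 0.62 relative to all genes. CHAC1, which degrades glutathione, stood at 1.65 FPKM before DOX, 9.41 after 12 h and 12.0 after 48 h, with a log2 ratio at 12 h of 2.44 (2.09 to 2.96). DDIT4, an inhibitor of mTORC1, had 1.77, 8.85 and 18.7 FPKM, and the transcription factor ATF5 had 3.21, 13.3 and 19.5 FPKM. SESN2, a leucine-sensing stress protein, rose from 14.4 to 38.3 FPKM. DDIT3, which encodes CHOP, rose from 0.8 to 2.93 FPKM on 17 and 58 reads, and 31.6% of its exon bases overlap a gene on the other strand. TRIB3 went from 17.2 to 34.5 FPKM, on the 2-fold line, and did not pass it under either rescaling. ATF4 itself, which is controlled mainly at translation, was at 109 and 194 FPKM, a log2 ratio of 0.83.

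In the other lines, 4 of 16 ATF4 genes rose and 1 fell in the AML1-ETO line, where 6.09% of all genes rose, and 1 of 17 rose in the ETO2-GLIS2 line, where 2.78% rose. CHAC1 went from 1.18 to 4.08 FPKM in the AML1-ETO line and from 1.3 to 2.54 FPKM in the ETO2-GLIS2 line. The difference between lines was not tested. The gene that fell in the AML1-ETO line was CEBPB, a C/EBP factor, at 30.4 and 14.9 FPKM there and at 21.0 and 42.1 FPKM in the empty vector line. The ATF4 element TGATGNAA, searched on both strands, was in the promoters of 4 of the 14 list genes with a promoter (ATF3, CEBPG, CHAC1 and JDP2), against 2.4% of the promoters of genes tested and 3.62% of all promoters. Of these 4, only CHAC1 was among the 6 list genes that rose in the empty vector line. SESN2, DDIT3 and DDIT4, which also rose, had a promoter but no match.

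PSAT1 (ENSG00000135069, chromosome 9 from 78297125 to 78330093), the aminotransferase of serine synthesis, stood at 60.9 FPKM before DOX, 181 after 12 h and 231 after 48 h, with a log2 ratio at 12 h of 1.57 (1.5 to 1.64). It also rose from 34.6 to 94.1 FPKM in the AML1-ETO line and from 51.5 to 116 FPKM in the ETO2-GLIS2 line. PSAT1 was the only 1 of 16 serine, proline and one-carbon enzymes past 2-fold (6.25%, near the 5.26% of all genes), 7 were more than 1.5-fold higher, against 13.6% of all genes, and the median was 0.54, or 0.40 relative to all genes. The other serine enzymes PHGDH (49.4 and 81.7 FPKM) and PSPH (17.4 and 28.1 FPKM) and the mitochondrial folate enzyme MTHFD2 (21.9 and 39.7 FPKM) were among these 7. The cytosolic folate enzymes MTHFD1 (12.96 and 12.1 FPKM) and SHMT1 (11.3 and 11.6 FPKM) had log2 ratios of -0.09 and 0.03. ALDH18A1, the first enzyme of proline synthesis, was at 66.9 and 42.7 FPKM, a log2 ratio of -0.65. PCK2, the mitochondrial PEP carboxykinase, named after its value was seen, rose from 22.1 to 45.1 FPKM.

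Amino acid transporters had a median of 0.55 over 13 genes, or 0.42 relative to all genes, and 1 rose (7.69%, near the 5.26% of all genes). SLC7A11, the cystine importer, rose from 2.81 to 6.67 FPKM and stood at 13.1 FPKM at 48 h. Its partner SLC3A2 was at 20.9 and 41.2 FPKM, a log2 ratio of 0.97, and the glutamine carrier SLC1A5 was at 52.9 and 93.3 FPKM. All 20 cytosolic aminoacyl-tRNA synthetases were tested, with a median of 0.40, or 0.26 relative to all genes. Of these, 15 were above their 0 h level, against 68% of all genes, and 1 rose (5%), which is near the share of all genes. WARS, for tryptophan, rose from 30.6 to 78.9 FPKM, a log2 ratio of 1.36 (1.31 to 1.43), while GARS (49.1 and 89.4 FPKM), SARS (23.7 and 42.4 FPKM) and TARS (25.5 and 44.5 FPKM) stayed under it. QARS, RARS, VARS, KARS and FARSA were below their 0 h level, with log2 ratios from -0.22 to -0.04.

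**Figure D3:**
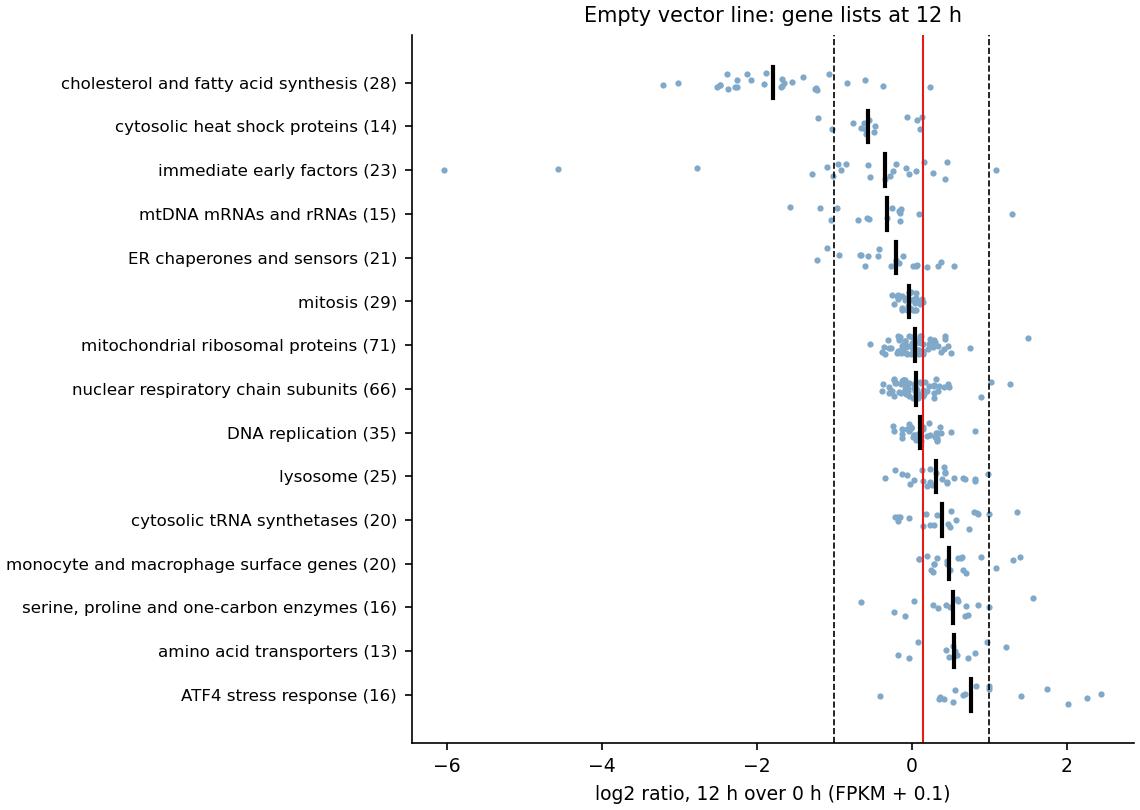
Log2 ratio of 12 h over 0 h (horizontal axis) in the empty vector line for the members of 15 gene lists that passed the filter, with the number of genes in brackets, 1 point per gene, a black bar at each list's median, a red line at the median of all genes tested and dashed lines at 2-fold. The cholesterol and fatty acid list has a median of -1.79 and the ATF4 list of 0.76, and the median of the nuclear mitochondrial lists, mitosis and DNA replication lies between -0.03 and 0.10.

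In the mitochondrial genome, 3 of 15 rRNAs and mRNAs fell (20%, against 1.8% of all genes), 1 rose (6.67%, near the 5.26% of all genes), and the median was -0.32, or -0.45 relative to all genes. The 13 mRNAs summed to 57326 FPKM at 0 h (21.3% of all FPKM), 35729 FPKM at 12 h (14.1%) and 35378 FPKM at 48 h (13.5%). The subunits of complex I MT-ND4L (3219.8 to 1086 FPKM), MT-ND4 (6814 to 2983 FPKM) and MT-ND1 (2804 to 1367 FPKM) fell, with log2 ratios of -1.57, -1.19 and -1.04. MT-CO1, the most abundant, was at 15028 and 7692 FPKM, a log2 ratio of -0.97, and passed 2-fold under both rescalings. MT-CO2, the next subunit of complex IV, was at 8393 and 5597 FPKM, a log2 ratio of -0.58. Among other complex I subunits, MT-ND2 was at 2882 and 2597 FPKM and MT-ND6, the only mRNA of the light strand, at 818 and 739.7 FPKM. MT-ATP8 was the only mRNA above its 0 h level, at 159 and 169 FPKM. MT-ND4L and MT-ND4 share a joint mRNA and MT-ATP8 and MT-ATP6 another, so the values within each pair are not independent.

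MT-RNR1, the small rRNA, went from 563 to 1375 FPKM and was at 814 FPKM at 48 h, a log2 ratio at 12 h of 1.29 (1.25 to 1.32). It was at 1116 and 1019 FPKM in the AML1-ETO line and at 733 and 819.8 FPKM in the ETO2-GLIS2 line, so the empty vector line at 0 h had the lowest of these values. Whether the libraries captured this rRNA alike was not tested. The large rRNA MT-RNR2 was at 2998 and 2729.5 FPKM in the empty vector line and at 6703 and 3083 FPKM in the AML1-ETO line. MT-ND4L, MT-ND4 and MT-ND1 fell in all 3 lines.

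**Figure D4:**
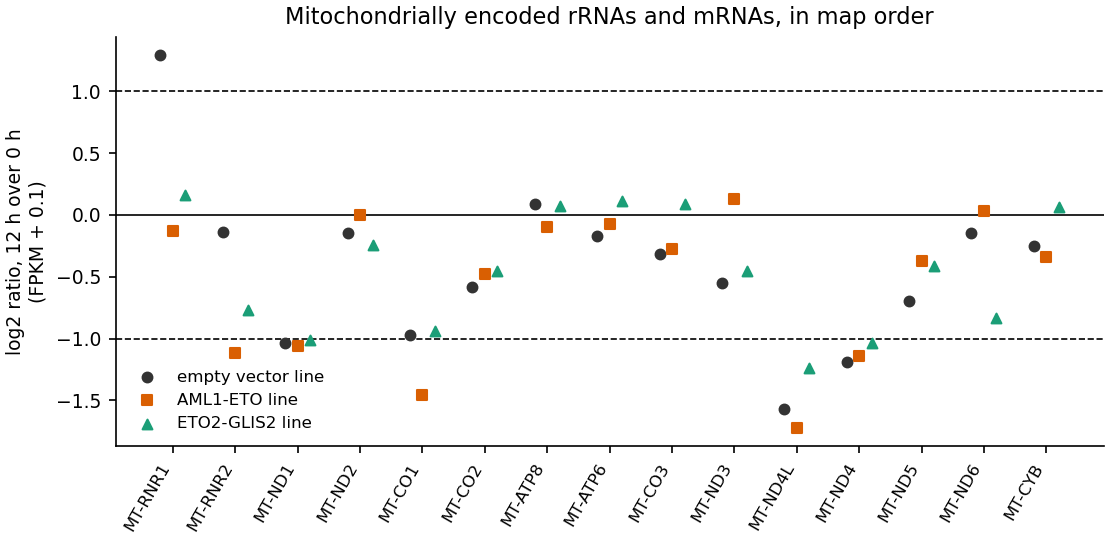
Log2 ratio of 12 h over 0 h (vertical axis) for the 15 mitochondrially encoded rRNAs and mRNAs, in the order of the mitochondrial map, in the empty vector, AML1-ETO and ETO2-GLIS2 lines, 1 library per line and time, with dashed lines at 2-fold. MT-ND1, MT-ND4L and MT-ND4 are below the lower line in all 3 lines, and MT-RNR1 is above the upper line in the empty vector line, at 1.29, and near 0 in the others.

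Few nuclear genes for mitochondria passed 2-fold. Of the ribosomal protein genes 1.41% rose and of the respiratory chain subunits 3.03%, against 5.26% of all genes. That share includes noncoding genes. Of the 9598 protein-coding genes tested 164 rose, so these list shares are not read as low. The medians were 0.04 for 71 mitochondrial ribosomal protein genes, 0.04 for 25 mitochondrial translation factors and tRNA synthetases, 0.07 for 24 genes of mtDNA transcription and maintenance and 0.05 for 66 respiratory chain subunits. All 4 were -0.09 to -0.06 after median rescaling, so no direction is given. Past 2-fold were MRPL23 (2.29 to 6.68 FPKM), NDUFA4L2, a hypoxia-linked relative of a respiratory subunit (3.81 to 9.32 FPKM), and ATP5MF (1.27 to 2.67 FPKM), the last not so under either rescaling. TUFM, the mitochondrial elongation factor, was at 101 and 77.5 FPKM and LRPPRC, which stabilizes mitochondrial mRNAs, at 38.9 and 37.6 FPKM. Of 14 mitochondrial chaperones and proteases none passed 2-fold, with HSPD1 at 287 and 214 FPKM and HSPA9 at 70.0 and 91.4 FPKM, and the median was -0.02. The 3 nuclear pseudogenes of mitochondrial genes that passed the filter had a median of -0.54 and share sequence with the mitochondrial mRNAs.

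Chaperones of the ER and the cytosol were mostly below their 0 h level. Of 21 ER chaperones and sensors, 2 fell (9.52%, against 1.8% of all genes) and the median was -0.20, or -0.33 relative to all genes. SDF2L1 went from 19.0 to 8.11 FPKM and MANF, a secreted stress factor, from 30.2 to 14.0 FPKM. HSPA5, the main ER Hsp70, was at 248 and 158 FPKM and PDIA4, a disulfide isomerase, at 174 and 91.1 FPKM, short of 2-fold, whereas the ER stress sensors ATF6 (2.49 and 3.26 FPKM) and ERN1 (5.39 and 6.82 FPKM) were above their 0 h level. The ER list had medians of -0.32 and -0.26 in the AML1-ETO and ETO2-GLIS2 lines with 0 genes past 2-fold. After median rescaling 3 fell in the empty vector line.

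Of 14 cytosolic heat shock genes, 2 fell (14.3%, against 1.8% of all genes), 7 were more than 1.5-fold lower, against 3.65% of all genes, and the median was -0.57. HSPA8, the constitutive Hsp70, went from 158 to 77.3 FPKM and was at 201 FPKM at 48 h. HSPA1B went from 19.9 to 8.5 FPKM, and it shares near-identical sequence with a neighbouring copy, so its reads are uncertain. HSP90AB1 was at 673 and 443 FPKM and DNAJA1 at 61.3 and 38.7 FPKM. In the other lines the median of the list was 0.22 and -0.02, and HSPA8 went from 131 to 234 FPKM and from 163 to 183 FPKM. The difference between lines was not tested.

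Of 33 monocyte and macrophage surface genes, 20 passed the filter. All 20 were above their 0 h level, against 68% of all genes, and 3 rose (15%, against 5.26% of all genes). Their median was 0.48, or 0.34 relative to all genes, and 0.38 with no filter on low values. TYROBP, the ITAM adaptor of myeloid receptors, went from 8.4 to 21.0 FPKM, CX3CR1, a chemokine receptor, from 1.33 to 2.91 FPKM, and CSF1R, the M-CSF receptor, from 0.525 to 1.55 FPKM on 44 and 121 reads. CSF1R passed the filter only through its 12 h value, so it could enter only as higher. After median rescaling 1 of 18 genes rose. ITGAL, the integrin subunit of LFA-1, rose from 4.02 to 16.0 FPKM and was at 23.8 FPKM at 48 h, a log2 ratio at 12 h of 1.97 (1.84 to 2.15). OSCAR, an activating collagen receptor, rose from 8.44 to 24.98 FPKM, and MFAP4, a matrix protein, from 8.51 to 29.6 FPKM. In the AML1-ETO and ETO2-GLIS2 lines, ITGAL went from 2.53 to 4.86 FPKM and from 7.24 to 15.6 FPKM. The calcium-binding protein gene S100P, chosen after its value was seen, rose from 52.3 to 127 FPKM.

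Of 25 lysosomal genes none passed 2-fold, 20 were above their 0 h level, against 68% of all genes, and the median was 0.31, or 0.18 relative to all genes. The aspartic protease CTSD was at 29.97 and 59.0 FPKM and CTSB at 68.4 and 120.1 FPKM. Among 13 granule proteins, 2 rose (15.4%, against 5.26% of all genes), S100A9 (9 and 24 reads) and CAMP (9 and 34 reads). Both passed the filter only through their 12 h value, so they could enter only as higher. The azurophil proteases ELANE (428 and 355 FPKM) and PRTN3 (469 and 291 FPKM) were lower and CTSG (61.2 and 118 FPKM) was higher, all short of 2-fold. The median of this list was 0.17, or 0.03 relative to all genes. LYZ, lysozyme, had the second largest rise in FPKM of any gene, from 519 to 775, with a log2 ratio of 0.58, behind MT-RNR1. AC243919.1, TMSB4X and CHI3L1 followed, at 429 and 595, 474 and 623, and 159 and 291 FPKM. Of 21 myeloid transcription factors none passed 2-fold and the median was 0.01 relative to all genes, with MYB at 85.2 and 81.9 FPKM, IRF8 at 88.7 and 71.7 FPKM, SPI1 at 67.0 and 76.9 FPKM and CEBPA at 61.0 and 71.7 FPKM.

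Proliferation and survival genes moved little. None of 35 DNA replication genes passed 2-fold, with PCNA at 195 and 198 FPKM and MCM4 at 109 and 118 FPKM. None of 29 mitosis genes did, with TPX2 at 359 and 318 FPKM and CDC20 at 130.1 and 142 FPKM. The same held for 21 G1 cyclins, CDK inhibitors and p53 targets (CDKN1B 65.3 and 69.3, CDK4 39.1 and 49.1 FPKM), for 13 BCL2 family genes (MCL1 59.1 and 52.8, BAK1 17.8 and 20.8 FPKM) and for 30 ribosome biogenesis genes (NPM1 269.9 and 266, NCL 192 and 149 FPKM). The medians of these 5 lists were 0.10, -0.03, 0.22, 0.16 and -0.03, and that of DNA replication was -0.04 after median rescaling. Of 83 cytosolic ribosomal protein genes 1 rose (1.2%, against 5.26% of all genes), RPL26L1, from 1.48 to 3.75 FPKM. Among protein-coding genes alone, 164 of the 9598 tested rose.

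In the remaining metabolic lists, the 17 iron and heme genes had none past 2-fold, with FTL at 4855 and 4195 FPKM and ALAS1 at 59.5 and 87.2 FPKM. Of 21 glycolysis and hypoxia genes, VEGFA rose from 7.74 to 15.6 FPKM, on the 2-fold line and under it after either rescaling, and PFKFB4, a regulator of glycolysis, fell from 6.81 to 2.89 FPKM. Each is 4.76% of the list, where 5.26% of all genes rose and 1.8% fell. PFKFB4 also fell from 7.68 to 2.83 FPKM and from 6.63 to 2.34 FPKM in the AML1-ETO and ETO2-GLIS2 lines. Among 17 oxidative stress genes SLC7A11 alone rose (5.88%, near the 5.26% of all genes). MT2A, a metallothionein that binds zinc, was the only 1 of 7 metallothionein and zinc genes past 2-fold (14.3%, against 5.26% of all genes). It was not past it after rescaling and was at 123 FPKM at 48 h, while MT1G was at 25.8 and 21.8 FPKM. None of 8 metalloproteinases and inhibitors passed 2-fold, with ADAM15 at 34.1 and 33.6 FPKM and TIMP1 at 24.2 and 37.6 FPKM.

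The largest single rise was in a noncoding RNA. LINC02542, annotated on chromosome 6 from 81843781 to 82101765, stood at 0.0426 FPKM before DOX, 48.7 after 12 h and 69.1 after 48 h, or 2 and 2127 reads at 0 and 12 h, a log2 ratio of 8.42 with an interval of the read ratio of 8.3 to 13.21. That log2 ratio depends on the pseudocount and was 9.85 with 0.01 FPKM and 5.57 with 1 FPKM. The AML1-ETO and ETO2-GLIS2 libraries held no more than 0.0423 FPKM of it. Its neighbours on the chromosome did not move with it, with TENT5A at 22.1 and 18.1 FPKM and IBTK at 9.47 and 8.71 FPKM. LINC01526, between TENT5A and LINC02542, was listed at 0 in both libraries.

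Small and duplicated genes made up part of the largest changes. EIF3C, a subunit of the initiation factor eIF3, went from 6.73 to 22.7 FPKM and was at 7.62 FPKM at 48 h, but it has a near-identical copy, so the assignment of its reads is uncertain. CLK1, a kinase of splicing factors, rose from 7.15 to 22.03 FPKM, and from 7.14 to 20.03 FPKM in the AML1-ETO line. Of the small nucleolar RNA genes tested, 11 of 51 rose (21.6%, against 5.26% of all genes) and 15 fell (29.4%, against 1.8%), and their values rest on few reads: SNORA11F had 9 and 32 reads, SNORA63 4 and 20, SNORD83A 17 and 4, and SNORD62B 18 and 6. The miRNA genes MIR4477B (14 and 44 reads) and MIR186 (8 and 23 reads) rose on like numbers. Of 18 host genes of small nucleolar RNAs, with a median of 0.52, 1 rose (5.56%, near the 5.26% of all genes). It was SNHG7, from 10.6 to 21.3 FPKM, under 2-fold after rescaling. Of 13 histone genes, HIST1H2BJ rose on 7 and 25 reads and HIST1H2BL fell on 14 and 3 reads (7.69% each way, against 5.26% and 1.8% of all genes). Each passed the filter only through its higher value, so its direction was fixed.

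Falls and rises were also counted in the other lines. Of the genes that fell and were also tested in the other line, 61 of 155 (39.4%) fell in the AML1-ETO line and 62 of 137 (45.3%) in the ETO2-GLIS2 line, against the 2.24% and 1.41% of all genes there. In the opposite direction, 24 (15.5%) and 16 (11.7%) rose, against 6.09% and 2.78% of all genes. Of the genes that rose, 163 of 438 (37.2%) and 93 of 408 (22.8%) rose in these lines, against 6.09% and 2.78%. Another 14 (3.2%) and 21 (5.15%) fell, against 2.24% and 1.41%. Calls in the opposite direction were thus also above the shares of all genes in both lines. At a mean of at least 10 FPKM in the empty vector line, 34 and 33 of 45 falls recurred and 30 recurred in both lines. Of 38 rises, 11 and 5 recurred and 2 in both. In the empty vector line 0.982% of all genes at that level fell and 0.851% rose. These shares were not taken in the other lines, so the recurrence counts at that level have none beside them.

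At a mean of at least 5 FPKM over the 6 libraries at 0 and 12 h, 34 genes fell past 2-fold in all 3 lines, and 21 of them (61.8%) belong to the cholesterol and fatty acid list. The others include EGR1, FOS, JUN, JUNB, MT-ND4L, MT-ND4, MT-ND1, ACAT2, TMEM97, ERG28 and TUBA1A. Ranked by the smallest of the 3 changes, EGR1, FOS, INSIG1, HMGCS1, FASN, FADS2, ACSS2 and SCD came first. Only 7 genes rose in all 3 lines at that level. They were PSAT1, HK3, a hexokinase of myeloid cells (1.93 to 4.84 FPKM), NDUFA4L2, PNMA6E (6.41 to 15.5 FPKM) and the short RNA genes SNORA63, RNU6-1048P and MIR6512, each with at most 20 reads at 12 h in the empty vector line. The genes that reached this level were not counted. The 34 falls, the 21 in the list and the 7 rises therefore have no share of all genes beside them.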

How the data were processed

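RNA-seq was made from total RNA of 3 stable U937 lines, 1 library per line and time. The methods name the TruSeq RNA Sample Preparation Kit and do not say how RNA was selected. How well mitochondrial rRNA, histone, small nucleolar RNA and miRNA genes were captured is therefore unknown. Their values may differ from RNA levels. Per the labels and the methods, the authors used HISAT2 (2.0.5) for alignment to hg38, SAMtools (1.7) to handle the alignments and HTSeq (0.9.1) at default settings to count reads on genes, and deposited FPKM for every gene. DESeq2 (1.22.2) is named in the submitters' processing notes with no role. The annotation version is not given in the sources used here. The kit did not mark strand, so a gene and an antisense partner cannot be told apart, and FPKM is scaled to the total reads of each library, so a change in abundant genes shifts all others.

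The deposited FPKM of the empty vector line at 0 and 12 h were compared as log2((12 h + 0.1)/(0 h + 0.1)) for genes with a mean of at least 1 FPKM with Python (3.11.15), numpy (2.4.6), pandas (2.3.3), scipy (1.17.1) and matplotlib (3.10.9). The pseudocount understates changes of low genes. Past 2-fold counted as changed. No test was made, because there is 1 library a side. Reads were recovered from FPKM as whole multiples of what 1 read is worth, which worked for 99.9% of genes detected in 3 or more libraries (23874 of 23889), and were used only for exact 95% Clopper-Pearson intervals, which cover counting error only because reads are not independent molecules. Recovery and calling were tested on simulated data with counting error alone, in which only well-read genes were changed. For calling, that test does not cover changes in weakly expressed genes, which make up most of the calls here. Where several identifiers shared a name, the one with the highest mean was used in lists.

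Members and the 38 gene lists were chosen with earlier results of these data known. The genes named are the 10 largest rises and falls past 2-fold with a mean of at least 10 FPKM, up to 8 rises and 8 falls past 2-fold in all 3 lines with a mean of at least 5 FPKM over 6 libraries, the 5 largest rises and falls in FPKM, the genes past 2-fold in each list (at most 4, those of highest mean) or otherwise the 2 of highest mean, and RUNX1, RUNX1T1, CBFA2T3 and GLIS2. Other list members were named for their role after their values were seen. Gene types and exon overlaps came from a GRCh37 annotation that held 96.6% of the identifiers. Coordinates and promoters came from RefSeq tables for GRCh38.p14. Alternatives were other pseudocounts, scalings, filters, fold thresholds, protein-coding genes alone and counting intervals. Some genes that the rule or the lists cover are not reported here by name.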

Additional observations from a re-analysis of the deposited data

Results flagged for a closer look

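In 2 named genes the ETO2-GLIS2 line moved past 2-fold the other way from the empty vector line at 12 h. SNORD62B went from 12.9 to 4.61 FPKM with the empty vector and from 1.89 to 3.9 FPKM in the ETO2-GLIS2 line, a difference of 2.47 between the log2 ratios. SNORD83A went from 11 to 2.78 FPKM and from 4.57 to 10.6 FPKM, a difference of 3.14. Both values rest on at most 18 reads in the empty vector line, there is 1 library per condition, and the difference was not tested.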

How the results depend on the processing

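Of the main count of 615 genes more than 2-fold higher and 211 lower, values past 1.5 times away came from a pseudocount of 1 FPKM (294 and 127), a mean of at least 5 FPKM (97 and 59), no filter on low values (3264 and 1654), protein-coding genes alone (164 and 62), a counting interval beyond 2-fold (124 and 45), thresholds of 1.5-fold (1594 and 427) and 3-fold (237 and 105), and a mean of at least 10 FPKM (39 and 45), the last chosen after seeing the data. With a pseudocount of 0.01 FPKM (660 and 220), the median ratio rescaling (430 and 234) and equal sums without mitochondrially encoded genes (543 and 218), they stayed within 1.5 times. Over 227 list medians under 6 settings, 9 moved outside the order-statistic interval of the median, all under a rescaling. Of 416 values for named genes, 89 moved by more than counting error (or by more than 0.05 where there is no interval), at most by 2.85 on the log2 scale, for LINC02542 with a pseudocount of 1 FPKM. No list or named gene past 2-fold changed sign. The direction of lists with a median near 0 (among them mitochondrial ribosomal proteins, respiratory subunits, DNA replication, cytosolic ribosomal proteins) changed sign under the median rescaling, which lowers each log2 ratio by about 0.14. Genes on the 2-fold line (TRIB3, VEGFA, MT2A, SNHG7, ATP5MF) were no longer past it. Depth limits the low genes: 236 of 605 rises and 108 of 196 falls had under 20 reads on the larger side. No paired analysis was possible because each group holds 1 library.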
